A study of Mus musculus with 6 samples.

Results

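The SOCS (suppressor of cytokine signaling) and PIAS (protein inhibitor of activated STAT) genes encode intracellular brakes on cytokine receptors. *Socs1*, *Socs3*, *Socs4*, *Socs5*, *Socs6*, *Socs7*, *Pias1*, *Pias2*, *Pias3* and *Pias4* were taken by symbol, 10 of the 56748 genes in the deposited tables. *Socs2* was not among the genes chosen. The genes were followed in uteri collected at 1600 h on day 4 of pregnancy from 3 control and 3 *Gp130* ecKO females on the C57BL/6 background (C57BL/6J in the methods of the study), in which *Ltf*-iCre deleted floxed *Gp130* (*Il6st*) in the uterine epithelium. The females were adults more than 8 weeks old. The labels give the controls as wildtype, whereas the methods of the study allow floxed females without iCre or wildtype females. The tissue is labelled uterus, whereas the design text of the deposited data names endometrium. In whole uterus, luminal and glandular epithelium, stroma, muscle, vessels and immune cells are read together. *Ltf*-iCre is also known to act in some myeloid cells. In such bulk RNA, fewer cells of a type and less RNA per cell cannot be told apart.

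Gp130 is the receptor subunit shared by LIF, IL-6, IL-11 and related cytokines. Ligand binding activates JAK kinases, which phosphorylate STAT3, and LIF acting through this route on the epithelium prepares the mouse uterus for embryo attachment. STAT3 switches on *Socs3*, whose protein binds gp130 and JAK and shuts the signal down, so *Socs3* is a classical feedback gene of this receptor. SOCS1 is a related JAK inhibitor best known from interferon signaling. SOCS4 and SOCS5 are linked to the epidermal growth factor receptor, and SOCS6 and SOCS7 to receptor tyrosine kinases and insulin signaling. All SOCS proteins carry an SH2 domain, which binds phosphotyrosine, and a SOCS box, which recruits a ubiquitin ligase. PIAS proteins act in the nucleus as ligases for the small modifier SUMO.

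The start of *Socs3* is shown because STAT proteins bind DNA at palindromes of the type TTCNNNGAA. Both strands read alike for this motif. *Socs3* lies on the minus strand of chromosome 11 at chr11:117856905-117860898 (GRCm39). Within 250 bases on either side of the start of its canonical transcript in GENCODE M39, 2 such motifs were found. They are given 5′ to 3′ on the gene's strand with 10 flanking bases, the motif in capitals.
Motif before the canonical start, at chr11:117860328-117860356: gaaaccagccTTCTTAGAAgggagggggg
Motif after the canonical start, at chr11:117860055-117860083: ggccgggcagTTCCAGGAAtcggggggcg
The first motif begins at base -223 from the start of the canonical transcript and the second at base 51, inside its first exon. Both lie within the annotated span of the gene, since another annotated transcript of *Socs3* starts further upstream. The same motif was present in 12.7% of 21770 protein-coding genes in a window of this size. In the same window around their own canonical starts *Socs1* held 1 motif, and *Socs4*, *Pias1* and *Pias3* held 0. In the RefSeq promoter table (GRCm38.p6), whose windows are placed differently, 1 of the 5 members with an entry (these 4 and *Socs3*) held the motif, against 8.3% of all 32851 windows. The motif and the window were chosen after the *Socs3* sequence had been read, and a match is a description of letters, not of binding.

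Expected counts were scaled for library size with TMM factors (CPM) and compared with edgeR's quasi-likelihood test. A gene was called at a Benjamini-Hochberg false discovery rate (FDR, adjusted p) under 0.05 with more than 2-fold change. Total expected counts were 13960748 (control 3) to 25906443 (control 2) per uterus. The member counts ranged from 45 (*Socs1*) to 3680 (*Socs7*) in a uterus. In a multidimensional scaling plot, control 2 lay between the other controls and the *Gp130* ecKO uteri (0.029 on the first dimension, against 2.08 to 2.09 in controls 1 and 3 and -1.47 to -1.32 in the *Gp130* ecKO uteri). The fold change of each member is therefore also given without control 2. For *Socs1*, *Socs3*, *Socs5* and *Socs7* it is also given without control 3, which had the lowest depth. The label "uterus" was checked with marker lists, and epithelial, stromal, muscle and endothelial markers were all present. Presence alone cannot decide between uterus and endometrium. Nothing in the labels or methods used here says whether the uteri were handled in separate batches. The p-values set the difference between the groups against the spread between uteri within them. A batch that ran along with genotype could not be told apart from the deletion.

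The targeted gene was examined first. *Il6st* was at 631, 678 and 452 CPM in the controls and at 388, 350 and 362 CPM in the *Gp130* ecKO uteri. The groups did not overlap, with a fitted level 1.60-fold lower in *Gp130* ecKO (-0.68 on the log2 scale, SE 0.21, adjusted p = 0.12, edgeR quasi-likelihood test).

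All 10 members passed the filter on low counts. In *Gp130* ecKO uteri *Socs3* was 6.28-fold lower and *Socs7* 2.10-fold higher, *Socs1* and *Socs5* were lower by smaller amounts, and the 4 PIAS genes lay within 1.41-fold of the control level. With all 6 uteri, the quasi-likelihood test called 0 of the 10 members, against 0.157% of the 16605 genes tested. Its unadjusted p was under 0.05 for 4 members (*Socs1*, *Socs3* and *Socs5* lower, *Socs7* higher), against 25% of all tested genes. For 4 members the groups did not overlap in CPM (*Socs3* and *Socs5* lower, *Socs7* and *Pias2* higher), against 31.3% of all tested genes. At an FDR under 0.1 with more than 2-fold change, 2 members passed (*Socs3* and *Socs7*), against 5.16% of all tested genes. The median log2 fold change was 0.06 over the 10 members and -0.05 over all tested genes.

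**Figure D1:**
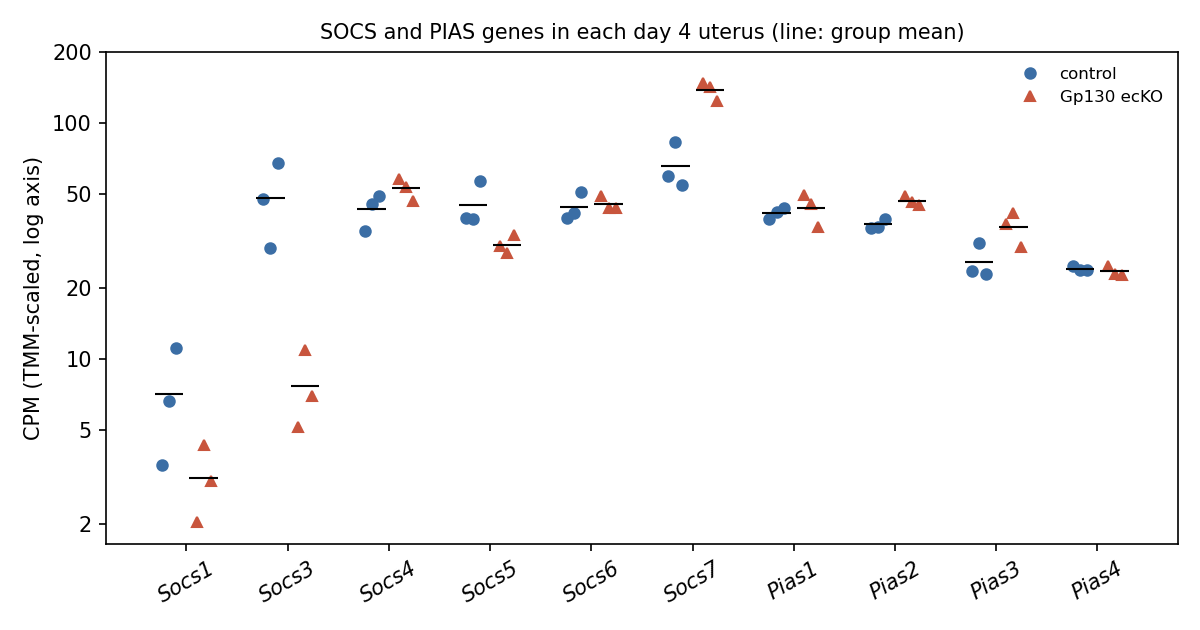
CPM of the 10 SOCS and PIAS genes on a log axis, 1 point per uterus (circles, 3 control uteri; triangles, 3 Gp130 ecKO uteri), with a line at each group mean. The 3 Gp130 ecKO uteri lie at 5.11 to 10.8 CPM for Socs3, below every control (29.5 to 67.2 CPM), and at 124 to 148 CPM for Socs7, above every control (54.2 to 83.0 CPM).

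*Socs3* was at 47.5, 29.5 and 67.2 CPM in controls 1, 2 and 3 and at 5.11, 10.8 and 6.92 CPM in *Gp130* ecKO uteri 1, 2 and 3. The lowest control, control 2, was still above the highest *Gp130* ecKO uterus. The log2 fold change was -2.65 (SE 0.395, 95% interval -3.58 to -1.73), with an unadjusted p of 0.000214 and an adjusted p of 0.0548 in edgeR's quasi-likelihood test. Of its 75-base stretches 4.96% are shared with genes annotated on the opposite strand (*Gm57366* and *Gm73339*), and the sources used here do not say whether counting used strand. *Socs3* stood in place 58 of the 16605 genes ordered by p. The exact two-sided permutation test over the 6 uteri gave p = 0.1, the smallest it can give with 3 against 3.

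The call of *Socs3* depended on the test. Without control 2 its log2 fold change was -2.87 and its adjusted p 0.0142, and *Socs3* and *Socs7* were then called, against 5.23% of all tested genes. Both were also called by edgeR's exact test (7.54% of all tested genes), by its likelihood ratio test (7.93%) and by DESeq2 (9.31%). Without the filter on low counts *Socs3* alone among the members was called, against 0.351% of the 29916 genes then tested. Over the 16 other fits the adjusted p of *Socs3* ran from 5.44e-08 to 0.154 and was under 0.05 in 5 of them, while its log2 fold change stayed between -2.99 and -2.34. With any uterus other than control 2 left out, its adjusted p in edgeR's quasi-likelihood test was 0.096 to 0.154. In those fits 0 members were called.

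**Figure D2:**
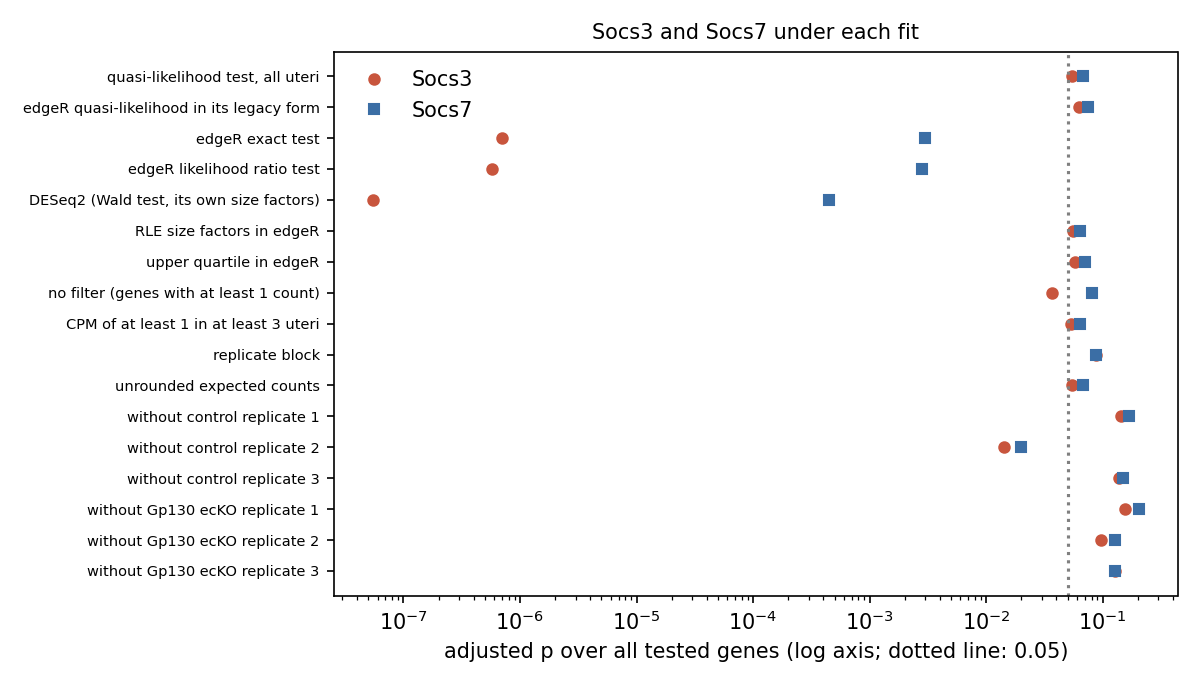
Adjusted p of Socs3 (circles) and Socs7 (squares) on a log axis under the quasi-likelihood test with all uteri and 16 other fits, with a dotted line at 0.05. Both genes lie left of the line in the exact test, the likelihood ratio test, DESeq2 and the fit without control 2, and Socs3 also without the filter on low counts.

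*Socs7* was at 59.1, 83.0 and 54.2 CPM in the controls and at 148, 142 and 124 CPM in the *Gp130* ecKO uteri. All *Gp130* ecKO uteri were above all controls, and control 2 was the highest control. The log2 fold change was 1.07 (SE 0.202, 95% interval 0.60 to 1.54), with an unadjusted p of 0.000931 and an adjusted p of 0.0676 in edgeR's quasi-likelihood test. Without control 2 the log2 fold change was 1.31 and the adjusted p 0.0197. Over the 16 other fits the adjusted p ran from 0.000446 to 0.205 and was under 0.05 in 4 of them. *Socs7* lies on the plus strand at chr11:97253032-97289368, on the same chromosome as *Socs3*.

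*Socs1*, the closest relative of *Socs3* as a JAK inhibitor, was the least abundant member. It was at 3.56, 6.63 and 11.1 CPM in the controls and at 2.03, 4.31 and 3.03 CPM in the *Gp130* ecKO uteri. The groups overlapped, since *Gp130* ecKO 2 was above control 1. The log2 fold change was -1.17 (SE 0.49, 95% interval -2.31 to -0.02, adjusted p = 0.194 in edgeR), and it ran from -1.47 to -0.70 when 1 uterus was left out. *Socs1* lies at chr16:10600104-10603875 on the minus strand, and 8.7% of its 75-base stretches are shared with a gene annotated on the opposite strand (*Gm61077*).

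*Socs5* was at 39.5, 38.9 and 56.5 CPM in the controls and at 30.1, 28.0 and 33.3 CPM in the *Gp130* ecKO uteri. The groups did not overlap, and control 3 was the highest. The log2 fold change was -0.56 (SE 0.205, 95% interval -1.04 to -0.08, adjusted p = 0.156 in edgeR). *Socs4*, which belongs to the same pair of SOCS genes, was at 34.8, 45.3 and 49.0 CPM in the controls and at 57.5, 53.5 and 46.8 CPM in the *Gp130* ecKO uteri. The groups overlapped (log2 fold change 0.29, 95% interval -0.15 to 0.73, adjusted p = 0.366 in edgeR).

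*Socs6* was at 39.4, 41.5 and 50.7 CPM in the controls and at 48.8, 43.6 and 43.3 CPM in the *Gp130* ecKO uteri. These ranges overlapped almost fully, and the 95% interval of the log2 fold change was -0.35 to 0.44 (adjusted p = 0.882 in edgeR). Its sign turned under upper quartile scaling and without *Gp130* ecKO 1. Of its stretches 5.23% are shared with *Gm9449* on the same strand, so its counts depend in part on how RSEM split such reads.

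Without control 2 the log2 fold changes of the other SOCS genes were -1.16 (*Socs1*), 0.36 (*Socs4*), -0.62 (*Socs5*) and 0.04 (*Socs6*). Those of the PIAS genes were 0.11 (*Pias1*), 0.35 (*Pias2*), 0.68 (*Pias3*) and -0.015 (*Pias4*). None of these 8 members was called in that fit, and the lowest adjusted p among them was 0.124 (*Pias3*, edgeR). Without control 3 the log2 fold changes were smaller, at -2.34 (*Socs3*), 0.95 (*Socs7*), -0.70 (*Socs1*) and -0.37 (*Socs5*). Their adjusted p values in edgeR's quasi-likelihood test were then 0.137, 0.148, 0.426 and 0.298.

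**Figure D3:**
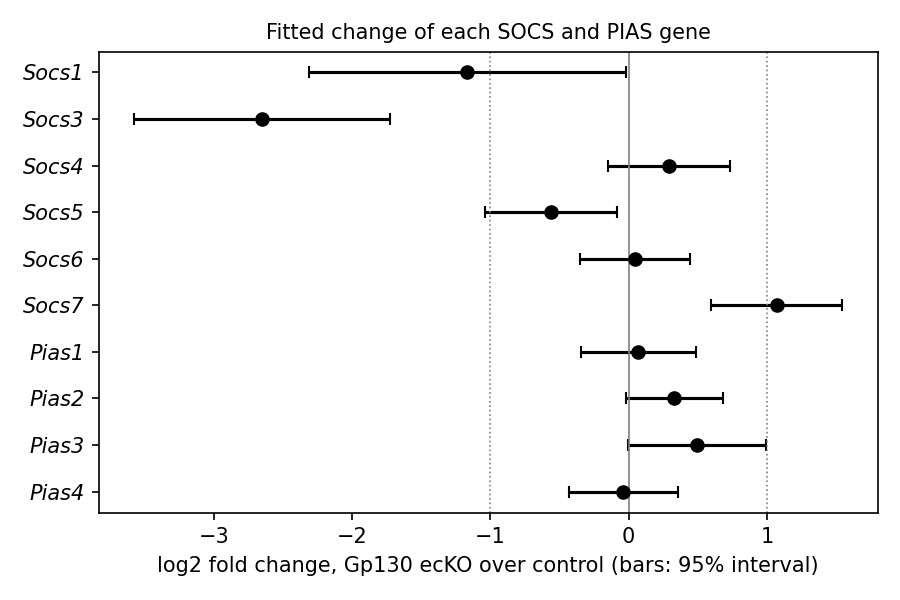
Fitted log2 fold change (Gp130 ecKO over control, n = 3 and 3 uteri) of each gene, with 95% intervals as bars and dotted lines at 2-fold. The intervals of Socs1, Socs3 and Socs5 lie below 0 and that of Socs7 above 0, and all PIAS intervals include 0.

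Among the SUMO ligases, *Pias2* was at 35.7, 36.2 and 39.2 CPM in the controls and at 49.0, 46.1 and 44.8 CPM in the *Gp130* ecKO uteri. The groups did not overlap, and the log2 fold change was 0.33 (SE 0.151, 95% interval -0.02 to 0.68, adjusted p = 0.219 in edgeR). *Pias3*, known for binding STAT3, was at 23.5, 30.8 and 22.8 CPM in the controls and at 37.3, 41.6 and 29.7 CPM in the *Gp130* ecKO uteri. Control 2 was above *Gp130* ecKO 3 (log2 fold change 0.49, SE 0.212, adjusted p = 0.201 in edgeR). Of the stretches of *Pias3* 10.9% are shared with *Nudt17* on the opposite strand.

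*Pias1* was at 39.0, 42.0 and 43.3 CPM in the controls and at 49.4, 45.1 and 36.1 CPM in the *Gp130* ecKO uteri. *Pias4* was at 24.6, 23.7 and 23.8 CPM in the controls and at 24.8, 22.8 and 22.7 CPM in the *Gp130* ecKO uteri, which was a narrow spread in both groups. Both overlapped between the groups, with 95% intervals of the log2 fold change of -0.34 to 0.48 (*Pias1*, adjusted p = 0.82 in edgeR) and -0.43 to 0.36 (*Pias4*, adjusted p = 0.901). The sign of *Pias1* turned under upper quartile scaling and without *Gp130* ecKO 1, and that of *Pias4* without control 1 or *Gp130* ecKO 3.

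The change of *Socs3* was then set against that of each other member within the same uterus, as the difference of log2(CPM + 0.5). For all 9 pairs every *Gp130* ecKO uterus gave a lower value than every control. The pairs share the *Socs3* values, so their common direction restates the result for *Socs3*. Each size lies close to the difference between the fold changes of *Socs3* and the other gene given above. The pairs are therefore a description and no separate evidence. The shift was smallest against *Socs1* (-1.57, from 2.73 ± 0.761 to 1.15 ± 0.0827, SD, n = 3) and largest against *Socs7* (-3.65, from -0.49 ± 0.904 to -4.14 ± 0.543). Against the PIAS genes it was -2.52 (*Pias4*) to -3.05 (*Pias3*). Each exact two-sided permutation test gave p = 0.1 (0.1 after adjustment over the 9 pairs), the smallest possible.

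Levels between genes were compared per length, with the deposited TPM, which scales transcripts for length and depth. In the controls *Socs3* had the highest mean of the 10 genes (25.6 ± 11.2 TPM, SD, n = 3), followed by *Pias2* (19.9 ± 2.42) and *Pias4* (17.4 ± 2.20). *Socs6* (15.8), *Socs5* (13.9), *Pias3* (13.9), *Socs7* (12.5), *Pias1* (10.3) and *Socs4* (8.31) came next. Each of these neighbours in the order overlapped, so only the step from *Socs4* to *Socs1* (3.43 ± 2.02 TPM) was larger than the spread between uteri.

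In the *Gp130* ecKO uteri *Socs7* had the highest mean (27.8 ± 4.74 TPM) and *Socs3* was in place 9 (4.31 ± 2.01 TPM). *Pias2* (26.2), *Pias3* (22.2), *Pias4* (17.9), *Socs6* (16.9), *Pias1* (13.1), *Socs5* (11.1) and *Socs4* (10.7) lay between, each overlapping its neighbour. The steps from *Socs4* to *Socs3* and from *Socs3* to *Socs1* (1.56 ± 0.681 TPM) had no overlap.

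*Socs3* made up 35.0%, 22.3% and 37.0% of the summed TPM of the 6 SOCS genes in the controls and 3.78%, 8.08% and 5.8% in the *Gp130* ecKO uteri. *Socs7* made up 15.8%, 22.8% and 10.9% in the controls and 39.5%, 38.0% and 37.5% in the *Gp130* ecKO uteri. *Socs7* was thus above *Socs3* in each *Gp130* ecKO uterus and below it in controls 1 and 3, and in control 2 they were nearly equal (*Socs3* over *Socs7* 0.979, against 2.21 and 3.38 in the other controls and 0.0959 to 0.212 in *Gp130* ecKO). The summed TPM of the SOCS genes was 67.5, 69.3 and 102 in the controls and 75.8, 81.7 and 59.6 in the *Gp130* ecKO uteri, so the sums overlapped. The summed TPM of the PIAS genes also overlapped, at 54.4, 62.3 and 67.7 in the controls and 81.4, 93.4 and 63.2 in the *Gp130* ecKO uteri.

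**Figure D4:**
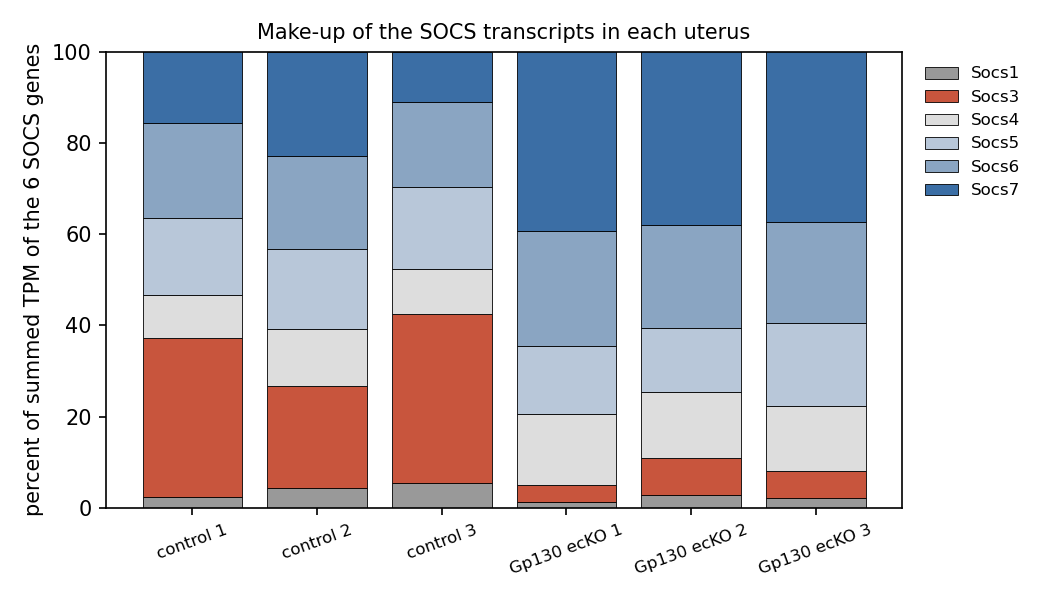
Share of each SOCS gene in the summed TPM of the 6 SOCS genes (percent), 1 stacked bar per uterus. Socs3 fills 22.3% to 37.0% of the control bars and 3.78% to 8.08% of the Gp130 ecKO bars, while Socs7 fills 10.9% to 22.8% and 37.5% to 39.5%.

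The length that RSEM gives a gene is the mean length of its transcripts weighted by their estimated abundance, so it moves when reads are assigned to other transcripts of the gene. For *Socs5* it was 4240 to 4363 bases in the controls and 3758 to 3886 bases in the *Gp130* ecKO uteri, a decrease of the mean with no overlap (-11.6%). *Socs5* has 3 annotated transcripts of 4762, 2019 and 978 bases. Together with *Socs1* (0.984% longer) and *Socs7* (0.789% longer), 3 members had lengths that did not overlap between the groups, against 19.5% of the 13069 genes whose length varied. The exact permutation test gave p = 0.1 for each of the 3 (0.267 after adjustment over the members whose length varied).

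*Socs3* and *Socs4* were at 1 constant length in every uterus (2552 and 6877 bases). The mean length of *Pias1* was lower by a similar share (-11.7%), but its *Gp130* ecKO uteri spread from 4245 to 5433 bases and overlapped the controls (5234 to 5470 bases). On the deposited scales per length, *Socs5* overlapped narrowly between the groups in TPM (11.4 to 18.2 in control and 10.8 to 11.4 in *Gp130* ecKO), and did not overlap in FPKM (9.03 to 14.2 and 7.72 to 8.42) or in CPM.

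**Figure D5:**
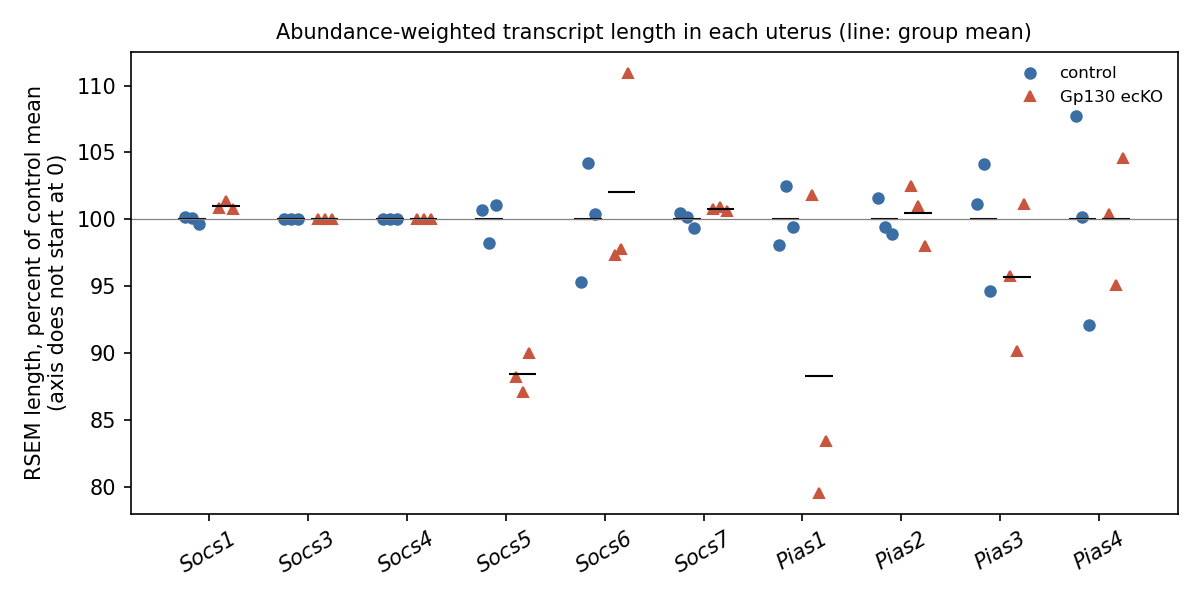
RSEM length of each gene as a percentage of its control mean, 1 point per uterus (circles, control; triangles, Gp130 ecKO), with lines at the group means and an axis that does not start at 0. The Socs5 points of the Gp130 ecKO uteri lie together below all controls, whereas those of Pias1 are spread out.

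Some of the marker lists differed between the groups and others overlapped. The summed CPM of 12 epithelial markers was 2588 to 4493 in the controls and 5998 to 8096 in the *Gp130* ecKO uteri (1.80-fold higher). The 11 stromal markers were at 4814 to 6139 and 2619 to 3805 CPM (1.64-fold lower), and the 8 endothelial markers at 521 to 1202 and 256 to 447 CPM (2.27-fold lower), each without overlap. In edgeR's quasi-likelihood test, the unadjusted p was under 0.05 for 4 of 12 epithelial markers (all higher), 7 of 11 stromal and 7 of 8 endothelial markers (all lower), against 25% of all tested genes, so the share of epithelial markers was near that background. The 7 neutrophil markers summed to 5.53 to 9.06 CPM in the controls and 1.13 to 4.35 CPM in the *Gp130* ecKO uteri, with *Mmp8* at 3 counts or fewer in every uterus. Smooth muscle (508 to 3102 CPM over all uteri), macrophage (438 to 646) and lymphocyte markers (15.5 to 65.9) overlapped between the groups.

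*Socs3* was also divided by these sums in each uterus, a calculation chosen after the values had been seen. The epithelial sum holds *Cdh1* and *Krt8*, whose protein levels the study reports as higher in *Gp130* ecKO epithelium. Such a sum need not follow the number of cells alone. Per 1000 CPM of epithelial markers *Socs3* was at 11.4, 6.57 and 26 CPM in the controls and at 0.631, 1.78 and 1.15 CPM in the *Gp130* ecKO uteri. Per 1000 CPM of stromal markers it was at 9.31, 4.81 and 14 against 1.95, 3.24 and 1.82, and per 1000 CPM of endothelial markers at 39.5, 37.9 and 129 against 19.9, 24.3 and 17.3. *Socs3* was lower without overlap per stromal, endothelial, macrophage and lymphocyte markers, and it overlapped per 1000 CPM of neutrophil markers. Per 1000 CPM of smooth muscle markers it was also lower without overlap, but narrowly. The values there were 16.3, 13.5 and 110 in the controls and 10.1, 11.4 and 2.23 in the *Gp130* ecKO uteri. Per epithelial markers *Socs3* was also lower without overlap, which had to follow, since their sum was itself higher without overlap in *Gp130* ecKO.

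*Socs7* per 1000 CPM of epithelial markers was at 14.2, 18.5 and 20.9 CPM in the controls and at 18.2, 23.2 and 20.6 CPM in the *Gp130* ecKO uteri, which overlapped. Per 1000 CPM of stromal markers it was at 11.6, 13.5 and 11.3 in the controls and at 56.3, 42.3 and 32.5 in the *Gp130* ecKO uteri, without overlap. It also overlapped per 1000 CPM of smooth muscle markers (20.3, 37.8 and 88.7 against 291, 149 and 39.9), and was higher without overlap per endothelial, macrophage, neutrophil and lymphocyte markers. Per stromal, endothelial and neutrophil markers this had to follow, since those sums were lower and *Socs7* CPM higher, both without overlap. The part of the cell make-up in the values of *Socs3*, *Socs7* and the other members was not tested.

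The other genes of the pathway were counted in 4 lists. Of 19 genes of the gp130 cascade (ligands, receptor subunits, JAKs and STATs) 15 were tested, 0 were called, and the unadjusted p was under 0.05 for 3 higher and 6 lower (25% of all tested genes), with a median log2 fold change of -0.45. The list holds the targeted gene *Il6st*, which was among the 6 lower genes. Its place there is therefore not a result about the pathway. Without control 2, 6 of these genes were called, against 5.23% of all tested genes. With all uteri in the fit, the lowest p of the cascade belonged to *Osmr*, the oncostatin M receptor (-3.78 on the log2 scale). Next came *Il6ra* and *Il11ra1*, the receptor chains for IL-6 and IL-11 (-1.91 and -0.64). *Osmr* was at 129, 17.1 and 118 CPM in the controls and at 6.19, 6.00 and 6.96 CPM in the *Gp130* ecKO uteri, with control 2 far below the other controls (adjusted p = 0.0648 in edgeR). *Lif* and *Stat3*, named here for their roles after their values had been seen, had log2 fold changes of 1.52 (adjusted p = 0.148 in edgeR) and -0.82 (adjusted p = 0.125). *Lif* was at 5.66, 11.3 and 29.5 CPM in the controls and at 44.9, 48.8 and 38.3 CPM in the *Gp130* ecKO uteri, without overlap.

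Of the 15 genes of the SOCS box ubiquitin ligase, all tested, 0 were called and 2 had an unadjusted p under 0.05, both lower, a smaller share than the 25% of all tested genes. These were *Elob*, which encodes elongin B, the SOCS box partner (-0.54 on the log2 scale), and *Ube2f*, a NEDD8-conjugating enzyme (-0.57). *Eloc*, for elongin C, was at -0.44 and *Rnf7*, a RING subunit of the ligase, at 0.37. The median over the list was -0.03.

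Of 17 SUMO genes, through which the PIAS proteins act, 0 were called, and *Sae1*, a subunit of the SUMO-activating enzyme (-0.43), and *Senp7*, a SUMO protease (0.58), were the 2 genes with an unadjusted p under 0.05, again a smaller share than the 25% of all tested genes. *Sumo3*, one of the SUMO proteins, was at 0.28, and the median was 0.02. Of 15 other brakes on JAK-STAT signaling 0 were called, with 3 higher and 2 lower at an unadjusted p under 0.05, a share near the 25% of all tested genes, and a median of 0.06. The lowest p values belonged to *Sh2b3*, an adaptor that restrains JAK2 (-0.77), *Pdlim2*, a ubiquitin ligase for STATs (1.40), *Stam2* (0.61) and *Ptpn2*, a phosphatase of JAKs and STATs (-0.69).

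The genes whose pattern over the 6 uteri was most like that of *Socs3* were sought by the root mean square difference of log2(CPM + 0.5), centred on each gene's mean, among 14732 tested genes with a mean CPM of at least 1. The nearest was *Hip1* (difference 0.2, against a median of 1.38 over all genes compared), followed by *Egr1* (0.29), *B930092H01Rik* (0.337), *Top2a* (0.344) and *Usp50* (0.359). *Hip1* was at 82.1, 63.9 and 130 CPM in the controls and at 12.7, 25.2 and 19.1 CPM in the *Gp130* ecKO uteri. *Egr1*, an immediate early transcription factor, was at 132, 60.5 and 125 CPM and at 18.7, 26.8 and 16.5 CPM. These genes were chosen for a pattern like that of *Socs3* over the same uteri, so their lower values in *Gp130* ecKO and in control 2 among the controls follow from the choice and are given as a description.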

How the data were processed

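RNA of 3 control and 3 *Gp130* ecKO uteri was made into stranded poly(A) libraries and read once per fragment over 75 bases. Per the labels and methods, the authors trimmed reads with fastp 0.23.2, removed ribosomal RNA reads, mapped to GRCm39 with STAR 2.7.10a and ran RSEM 1.3.3, whose model splits reads that fit several genes. The deposited expected counts are not normalized, and in the TPM and FPKM columns the authors corrected for transcript length and depth. The annotation version and the use of strand in counting are not given in the sources used here.

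After rounding of the expected counts, edgeR 4.0.16 in R 4.3.3 was used for the tests (filterByExpr, TMM, quasi-likelihood F test without the legacy form, Benjamini-Hochberg over 16605 genes). Standard errors are the log2 fold change over the square root of F. TPM and FPKM gave levels only. Alternatives were other edgeR tests, DESeq2 1.42.0, other scalings, other filters, other thresholds, counts without rounding, a block for the replicate number, and leaving out 1 uterus at a time. The fit was tested on simulated data. Symbols and coordinates came from GENCODE M39, which holds 56017 of 56748 identifiers, and promoter windows also from RefSeq.

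Members and gene lists were chosen with earlier results of these data known. Named genes are the 10 members, *Il6st*, up to 4 genes per list with the lowest p, and the 5 nearest to *Socs3*. *Lif* and *Stat3* were added for their roles after their values were seen. *Cdh1*, *Krt8* and *Mmp8* are named as cell type markers. Some genes that this rule names are not reported here. No pair of libraries of a group had nearly identical counts.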

Additional observations from a re-analysis of the deposited data

How the results depend on the processing

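The directions of *Socs1*, *Socs3*, *Socs4*, *Socs5*, *Socs7*, *Pias2* and *Pias3* held in all 16 other fits. Signs turned for *Socs6* (-0.025) and *Pias1* (-0.001) under upper quartile scaling, which moved the median log2 fold change of all genes from -0.05 to -0.11. They also turned for *Socs6* (-0.008) and *Pias1* (-0.024) without *Gp130* ecKO 1, and for *Pias4* without control 1 (0.006) and without *Gp130* ecKO 3 (0.012). With 1 uterus left out, *Socs6* ranged from -0.008 to 0.159, *Pias1* from -0.024 to 0.216 and *Pias4* from -0.075 to 0.012. The number of members called went from 0 to 2 with the exact test, the likelihood ratio test, DESeq2 or an FDR under 0.1, and to 1 without the filter on low counts. *Socs3* then passed the threshold at -2.65 (exact and likelihood ratio tests), -2.64 (DESeq2) and -2.61 (no filter). The gp130 cascade had 3 called genes with the exact test, 3 with the likelihood ratio test and 5 with DESeq2, and the other brakes on JAK-STAT had 1 with each, while these tests called 7.54%, 7.93% and 9.31% of all tested genes against 0.157% in the quasi-likelihood test. The SOCS box ligase and SUMO lists had 0 called genes in each of the 16 other fits. With 1 uterus left out, members called ranged from 0 to 2 (2 only without control 2), members with an unadjusted p under 0.05 from 2 to 4 (15.4% to 27.3% of all tested genes), members without overlap from 5 to 7 (36.5% to 45.9%), the log2 fold change of *Socs3* from -2.99 to -2.34, called genes of the gp130 cascade from 0 to 6 (6 without control 2, where 5.23% of all tested genes were called) and of the other brakes from 0 to 1. The unadjusted p was under 0.05 for 5 members with the legacy form and with RLE size factors and for 6 with DESeq2 (24.3%, 25.1% and 27.3% of all tested genes). The larger counts of members without overlap come with fewer uteri per group, and for the rest the cause was not tested.

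With the replicate number as a block, *Socs3* was at -2.65 and its adjusted p was 0.0866, like that of *Socs7*, and 0 members and 6 genes in all were called, against 26 without the block. Deviations of same-numbered uteri correlated at 0.10, 0.06 and -0.18, so the numbers were not taken to pair the uteri. Depth limits *Socs1* most, with 45 to 172 counts per uterus.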
